A study of Mus musculus with 6 samples.

Results

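The complement genes described here are 9 of the 14097 genes listed for sorted colonic macrophages (MΦs): the C1q chains *C1qa*, *C1qb* and *C1qc*, the components *C4b*, *C3*, *Cfb* (factor B) and *Cfp* (properdin), and the anaphylatoxin receptors *C3ar1* and *C5ar1*. They were chosen by name for their place in the complement cascade, with earlier results of these data known. All 9 passed the filter of 50 normalized counts (reads on a gene divided by the size factor of the library) in at least 1 library, as did 11067 genes in all. The macrophages were P3/P4 MΦs, the mature stages of the series that starts from monocytes, gated as CD45+CD11b+CD11cintCD103-CD64+Ly6C-MHCII+, of *Il10rb-/-* mice and littermate *Il10rb+/-* controls on the 129SvEv background, and were collected at 1, 3 and 12 weeks of age. The *Il10rb* gene encodes a chain of the IL10 receptor, the null allele is a germline one, and the controls also carry 1 copy of it. RNA-seq was done on 6 libraries, 1 for each genotype and age, each from 1 mouse at 3 and 12 weeks and from pooled mice at 1 week. A difference between genotypes at 1 age therefore rests on 2 libraries without replicates.

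Complement is a cascade of plasma proteases that coats targets with fragments of C3 and C4 and releases the peptides C3a and C5a. C1q, a hexamer built of A, B and C chains, recognizes its targets and starts the classical pathway, while factor B and properdin form and hold the convertase of the alternative pathway. Most circulating components come from the liver, but tissue MΦs are the main source of C1q, also make C3, factor B and properdin, and sense C3a and C5a through the receptors C3aR and C5aR1.

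The libraries held between 6700337 (3-week *Il10rb+/-*) and 40754971 reads (12-week *Il10rb+/-*) on the listed genes. *Il10rb* itself was at 1221, 939 and 1107 normalized counts in the controls of 1, 3 and 12 weeks and at 12.0, 24.6 and 27.4 in the *Il10rb-/-* libraries, so that the *Il10rb-/-* library was the lower one at each age. Among 10 markers of the gate and of MΦs, all had reads in each library. Their summed level was between 292763 and 503454 normalized counts. At 12 weeks 5 of the 10 were higher in *Il10rb-/-* MΦs, such as *Ptprc* (21815 in control and 32231 in *Il10rb-/-* MΦs) and *Itgax* (2857 and 5901), and 5 were lower, such as *Adgre1* (16537 and 3800) and *Cx3cr1* (8074 and 906), while *Csf1r* stood at 47225 and 46878. Of the genes for Ly6C, which the gate excludes, *Ly6c2* was listed at 143 and 2611 and *Ly6c1* at 585 and 116. Other cell types also left transcripts at 12 weeks, with epithelial marker sums of 992 and 2356, endothelial sums of 7046 and 1215 (3926 and 1212 without *Lyve1*, which is also in the resident macrophage list) and T cell sums of 194 and 618, and the sum of heat shock and dissociation genes was 888673 and 549835. In such sorted populations, fewer cells of a type and less RNA per cell cannot be told apart.

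At 12 weeks the members differed between genotypes in both directions. The C1q chains and *C3ar1* were over 3-fold lower in *Il10rb-/-* than in control MΦs, *C3* and *Cfb* were over 3-fold higher, *C5ar1* was lower by 2.18-fold, and *C4b* and *Cfp* differed by less than 2-fold. In all, 2 of 9 members were over 3-fold higher, beside 4.03% of the 11067 genes, and 4 of 9 were over 3-fold lower, beside 9.99% of genes. At 3 weeks 1 member (*Cfb*) was over 3-fold higher, beside 1.34% of genes, and none was over 3-fold lower, beside 0.642%. *Cfb* passed the filter through the 3- and 12-week *Il10rb-/-* libraries, where it is high, so these counts are not independent of that choice. At 1 week no member passed 3-fold in either direction, beside 2.75% of genes higher and 0.75% lower. The median log2 ratio (*Il10rb-/-* over *Il10rb+/-*) of the members was 0.28 at 1 week, -0.12 at 3 weeks and -1.13 at 12 weeks, and that of all genes past the filter was -0.04, 0.02 and 0.04.

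**Figure D1:**
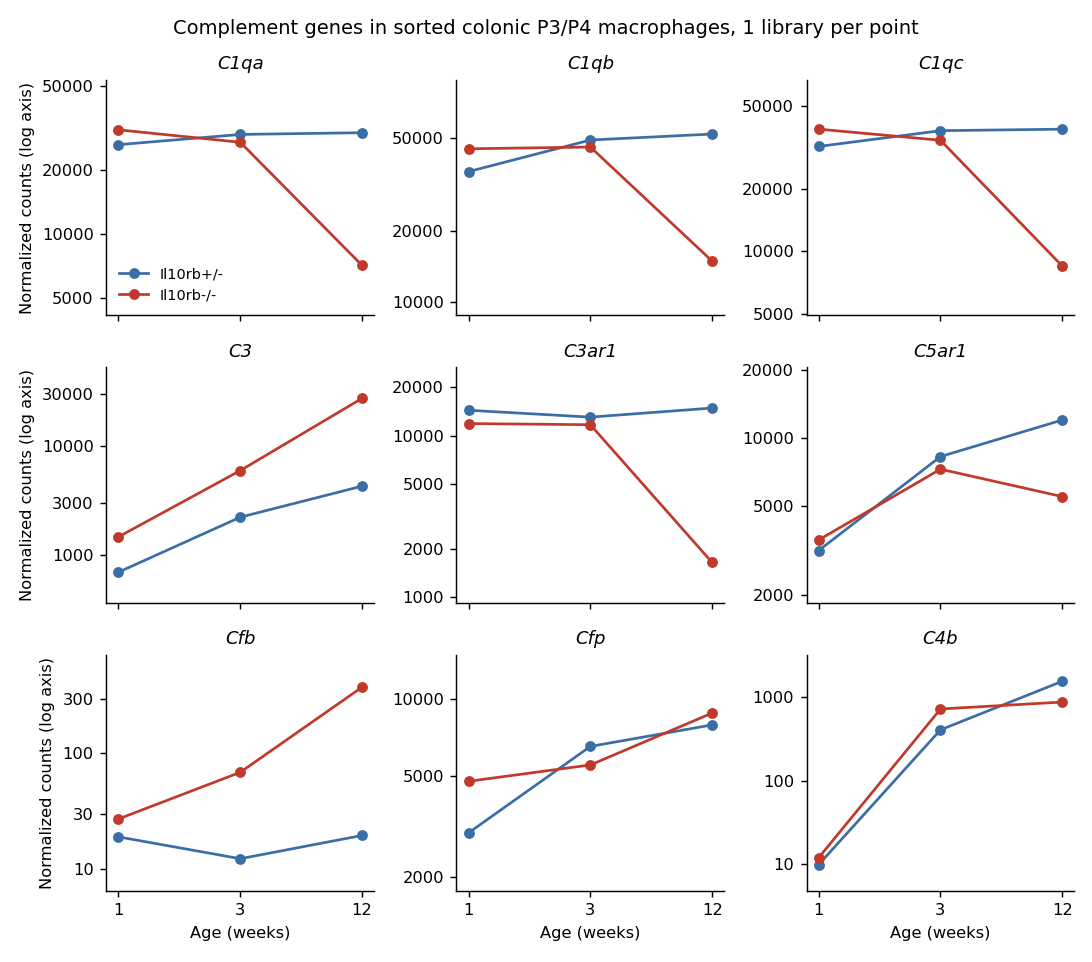
Normalized counts (log axis, scaled for each gene) of the 9 complement genes against age in weeks, 1 library per point, with *Il10rb+/-* in blue and *Il10rb-/-* in red. The C1q chains and *C3ar1* are lowest in the 12-week *Il10rb-/-* library, and in controls they differ between ages by up to 1.44-fold (*C1qb*). *C3* is higher at each later age in both genotypes, and *Cfb* in *Il10rb-/-* MΦs goes from 27.0 to 377 normalized counts.

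The genes of the C1q chains lie side by side on the minus strand of chromosome 4 (GRCm38): *C1qb* at chr4:136880129-136886187, *C1qc* at chr4:136889804-136893065 and *C1qa* at chr4:136895917-136898803. The gaps are 3.616 kb between *C1qb* and *C1qc* and 2.851 kb between *C1qc* and *C1qa*. Because the chains were low together in 1 library, the RefSeq promoters (GRCm38.p6, from 250 bases before to 50 bases after the start) of the 2 chains present in the promoter table are shown, with matches to the motifs searched in capitals:
*C1qb*, chr4:136886151-136886450, minus strand: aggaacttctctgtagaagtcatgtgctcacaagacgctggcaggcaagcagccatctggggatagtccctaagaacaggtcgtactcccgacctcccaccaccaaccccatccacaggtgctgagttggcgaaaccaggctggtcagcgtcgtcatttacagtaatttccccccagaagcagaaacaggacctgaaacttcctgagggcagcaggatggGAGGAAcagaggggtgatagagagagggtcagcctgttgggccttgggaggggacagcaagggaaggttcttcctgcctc
*C1qc*, chr4:136892865-136893164, minus strand: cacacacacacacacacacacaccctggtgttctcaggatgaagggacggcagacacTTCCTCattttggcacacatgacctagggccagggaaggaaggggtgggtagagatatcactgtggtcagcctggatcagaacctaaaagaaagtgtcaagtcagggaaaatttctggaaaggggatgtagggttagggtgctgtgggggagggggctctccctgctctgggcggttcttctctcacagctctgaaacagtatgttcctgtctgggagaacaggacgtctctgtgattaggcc
Each window holds 1 match to the PU.1 core GAGGAA, on the plus strand of the window 30 bases before the start in *C1qb* and on the opposite strand, as TTCCTC, 193 bases before the start in *C1qc*. This short motif was found on 1 or the other strand in 28.3% of 32851 mouse promoters of the same length, and PU.1 is a transcription factor of the myeloid lineage. Neither window held the letters GGGANTTTC (NF-kB), GAAANNGAA (interferon-stimulated response element), TTCNNNGAA (STAT) or TTNNGCAA (C/EBP). The window of *Cfp*, which differed by 1.11-fold between genotypes at 12 weeks, held 2 PU.1 matches. That of *C5ar1* held 1 match, to the interferon-stimulated response element. The matches shown overlap no other motif searched. A match describes these letters and does not show a binding site.

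At 1 week *C1qa* was at 26322 normalized counts in control and 30920 in *Il10rb-/-* MΦs, at 3 weeks at 29414 and 27020, and at 12 weeks at 29971 and 7106. *C1qb* was at 35888 and 44863, then 48894 and 45652, then 51831 and 14925. *C1qc* was at 31878 and 38581, then 37936 and 34125, then 38573 and 8511. For each chain, the other 5 libraries lay within 1.44-fold of each other and the 12-week *Il10rb-/-* library was the lowest. The log2 ratios at 12 weeks were -2.08 for *C1qa* (95% counting interval -2.11 to -2.05), -1.80 for *C1qb* (-1.82 to -1.78) and -2.18 for *C1qc* (-2.21 to -2.15), or 4.22-, 3.47- and 4.53-fold lower. At 1 week the chains were slightly higher in *Il10rb-/-* MΦs (log2 ratios of 0.23, 0.32 and 0.28) and at 3 weeks slightly lower (-0.12, -0.10 and -0.15). These intervals come from reads alone and leave out the spread between mice, which 1 library per genotype and age cannot show.

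C1q transcripts were among the most abundant of these cells. The chains together took between 0.625% and 0.772% of the reads of the other 5 libraries and 0.136% of those of the 12-week *Il10rb-/-* library. By normalized counts, *C1qb* ranked between 31 and 45 among the listed genes in the other 5 libraries and 210 in that library, *C1qc* between 37 and 63 and then 393, and *C1qa* between 44 and 79 and then 469. The chains did not keep a constant ratio. *C1qb* over *C1qa* was 1.36 and 1.45 at 1 week, 1.66 and 1.69 at 3 weeks, then 1.73 and 2.10 at 12 weeks, in control and *Il10rb-/-* MΦs, so that it was higher in the older libraries of both genotypes and highest where C1q was lowest. *C1qc* over *C1qa* was between 1.20 and 1.29. Per kb of exon, *C1qb* gave 44.1% of the summed level of the chains in 1-week controls and 55.0% in the 12-week *Il10rb-/-* library.

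**Figure D2:**
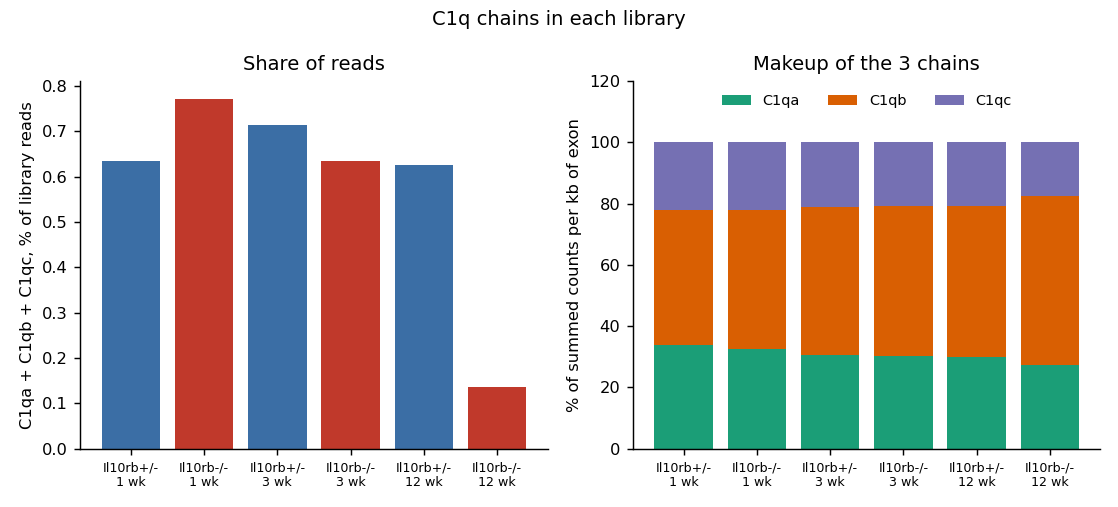
Left, reads of *C1qa*, *C1qb* and *C1qc* together as a percentage of the reads of each library (bars start at 0; blue *Il10rb+/-*, red *Il10rb-/-*). Right, the share of each chain in their summed counts per kb of exon. The 12-week *Il10rb-/-* library holds 0.136% C1q reads and the largest *C1qb* share, 55.0%.

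The low C1q of the 12-week *Il10rb-/-* library went with low levels of other genes of resident MΦs there. The summed level of 10 resident macrophage markers was between 46437 and 69178 normalized counts in the other 5 libraries and 8408 in the 12-week *Il10rb-/-* library, where 9 of the 10 were lower than in the control and *Timd4* was higher (985 and 1535). Of 8 monocyte markers, 6 were higher in that library, with sums of 28701 in control and 37073 in *Il10rb-/-* MΦs. Among them *Plac8* was at 1515 and 14515 and *Ccr2* at 11505 and 13312, while *F13a1* (9349 and 1039) and *Fn1* (5876 and 3913) were lower. The resident macrophage sum was 0.172 of the control's at 12 weeks, and the summed C1q was 30542 against 120374. Their part in the result was not tested. Over the 6 libraries, the genes outside complement whose log2 values were most like the summed C1q were *Mars* (Pearson's r = 0.994), *Nfic* (0.994), *Apoe* (0.990), *Trim47* (0.988) and *Fcrls* (0.988), among 5239 genes with a mean of at least 500 normalized counts. These values share the low 12-week *Il10rb-/-* point and are a description. They do not measure the size of a difference: *Mars* was at 880 in control and 764 in *Il10rb-/-* MΦs at 12 weeks. *Apoe*, which encodes apolipoprotein E, was at 81265 and 2663 at 12 weeks in control and *Il10rb-/-* MΦs, and *Fcrls*, a scavenger receptor-like gene, at 3414 and 19.7.

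*C4b* encodes C4, which the C1 complex cleaves in the classical pathway. It lies at chr17:34728380-34743882 in the major histocompatibility complex, 112.491 kb from *Cfb*. Its level differed between ages more than that of any other member. *C4b* was at 9.92 and 12.0 normalized counts (10 and 8 reads) at 1 week in control and *Il10rb-/-* MΦs, 406 and 722 (167 and 821 reads) at 3 weeks, then 1550 and 874 (3278 and 1373 reads) at 12 weeks. Both 1-week libraries were below both libraries of each later age. The genotypes crossed: the log2 ratio was 0.27 (-1.27 to 1.77) at 1 week, 0.83 (0.59 to 1.08) at 3 weeks and -0.83 (-0.92 to -0.73) at 12 weeks. In the annotation, 22.7% of the 75-base windows of *C4b* transcripts also occur in *C4a*, a near-identical copy that is not among the listed genes. How reads from such windows were assigned is not known, so the level of *C4b* is uncertain by an unknown amount.

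Fibroblasts are another source of C4, and their markers were also higher at the later ages in controls. The summed level of 10 fibroblast markers was 230 and 1315 normalized counts at 1 week in control and *Il10rb-/-* MΦs, 3027 and 3137 at 3 weeks, then 4439 and 566 at 12 weeks. *Col3a1* was at 100, 692, 1823, 1855, 1678 and 59.2 in the same order, and in the 12-week *Il10rb-/-* library 9 of the 10 were below the control, with *Mfap5* and *Dpt* at 0 reads. There, *C4b* was 73.0-fold above its 1-week level of the same genotype, while the fibroblast sum was below that of the 1-week *Il10rb-/-* library. In the 1-week pair the fibroblast sum was 5.72-fold higher in *Il10rb-/-* MΦs, while *C4b* was at 12.0 normalized counts there and 9.92 in the control. The part of such cells in the level of *C4b* was not tested.

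**Figure D3:**
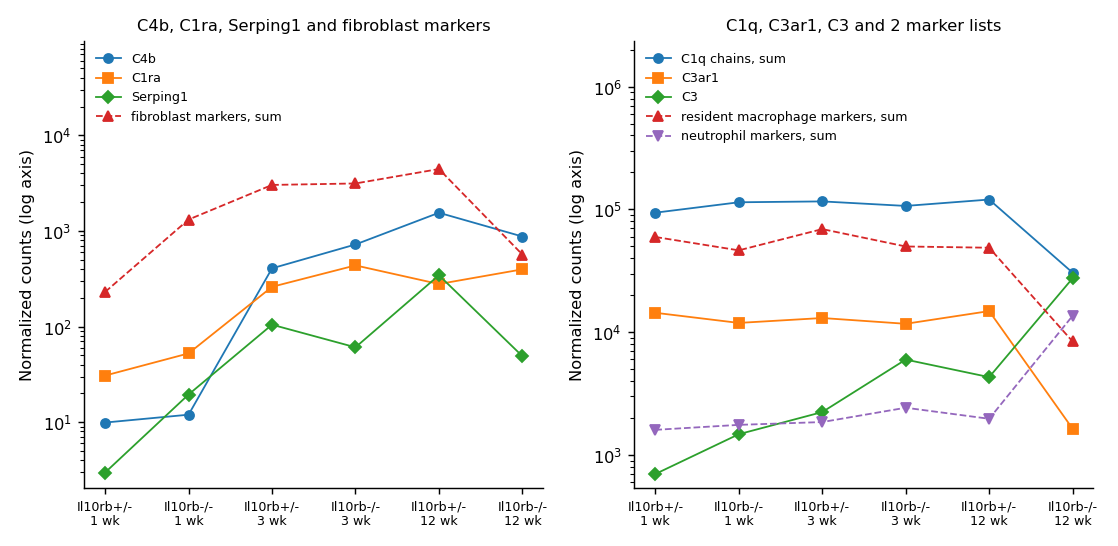
Left, *C4b*, *C1ra* and *Serping1* with the summed fibroblast markers. Right, the summed C1q chains, *C3ar1* and *C3* with the summed resident macrophage and neutrophil markers. The vertical axes give normalized counts on a log scale for the 6 libraries, 1 point per library, and the lines only join the points. In the 12-week *Il10rb-/-* library the fibroblast sum is 566 while *C4b* is 874, and *C3* has its highest value (27522) where the summed C1q has its lowest (30542).

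*C3*, the component on which all pathways converge, lies at chr17:57203970-57228136. Since it differed in the opposite direction to C1q and to its own receptor, its RefSeq promoter is shown with that of *C3ar1*, over the same window:
*C3*, chr17:57228087-57228386, minus strand: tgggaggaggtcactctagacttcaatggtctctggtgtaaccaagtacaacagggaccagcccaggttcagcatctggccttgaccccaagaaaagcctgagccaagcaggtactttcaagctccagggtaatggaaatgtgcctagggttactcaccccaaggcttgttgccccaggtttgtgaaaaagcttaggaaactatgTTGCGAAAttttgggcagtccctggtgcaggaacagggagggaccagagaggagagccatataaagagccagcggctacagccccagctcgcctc
*C3ar1*, chr6:122856108-122856407, minus strand: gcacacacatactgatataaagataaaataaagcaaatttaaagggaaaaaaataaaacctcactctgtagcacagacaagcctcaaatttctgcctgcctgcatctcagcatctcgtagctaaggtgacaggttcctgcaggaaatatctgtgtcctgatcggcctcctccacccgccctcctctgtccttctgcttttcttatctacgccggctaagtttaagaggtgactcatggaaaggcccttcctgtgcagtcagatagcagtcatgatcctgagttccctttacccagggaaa
In *C3* the window holds 1 match to the C/EBP motif TTNNGCAA, on the opposite strand as TTGCGAAA and 45 bases before the start, and such a match stood in 10.8% of all promoters. C/EBP factors are induced in acute inflammation. In the *C3ar1* window none of the 5 motifs was found.

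At 1 week *C3* was at 701 normalized counts in control and 1478 in *Il10rb-/-* MΦs, at 3 weeks at 2239 and 5991, and at 12 weeks at 4310 and 27522. It was higher at each later age in both genotypes, and higher in *Il10rb-/-* than in control MΦs at each age. The log2 ratio was 1.08 (0.94 to 1.22) at 1 week, 1.42 (1.32 to 1.52) at 3 weeks and 2.67 (2.64 to 2.71) at 12 weeks, or 2.11-, 2.68- and 6.39-fold. From 1 to 12 weeks *C3* differed by 6.15-fold in control and 18.6-fold in *Il10rb-/-* MΦs, and its rank among the listed genes went from 4091 to 644 and from 1879 to 93. The genes most like *C3* over the 6 libraries were *Irg1* (r = 0.995), *Csf2rb2* (0.995), *Phyh* (0.994), *Pfkp* (0.994) and *Klra2* (0.994). *Irg1* encodes the enzyme that makes itaconate in activated MΦs, and stood at 46.6, 121, 207, 2109, 823 and 29911 normalized counts in the libraries of 1, 3 and 12 weeks, the control first at each age.

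*Cfb* encodes the protease that binds C3b in the alternative pathway. It lies at chr17:34856374-34862518. *Cfb* was at 18.8 and 27.0 normalized counts (19 and 18 reads) at 1 week, 12.2 and 68.6 (5 and 78 reads) at 3 weeks, then 19.4 and 377 (41 and 592 reads) at 12 weeks in control and *Il10rb-/-* MΦs. The controls were at 19.4 normalized counts or less at every age, and the *Il10rb-/-* libraries were above them by more than counting error from 3 weeks on. The log2 ratio was 0.52 (-0.50 to 1.53) at 1 week, where the interval holds 0, 2.49 (1.21 to 4.16) at 3 weeks and 4.28 (3.82 to 4.78) at 12 weeks, or 19.4-fold. The ratio at 3 weeks rests on 5 reads in the control and was 1.83 with a pseudocount of 10. Of its exon bases, 79.5% are shared with the readthrough gene *Gm20547*, and 69.9% of its 75-base windows occur there too, so how its reads were assigned is uncertain and its level is that of *Cfb* as listed. The genes most like it were *Psme3* (r = 0.989), *Msn*, *H2-T22* and *Cers6* (each 0.987) and *Cwc25* (0.986). Such likeness says nothing of size: *Psme3* was at 1461 in control and 2024 in *Il10rb-/-* MΦs at 12 weeks.

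Neutrophil transcripts were also highest in the 12-week *Il10rb-/-* library, where *C3* and *Cfb* were highest. The sum of 10 neutrophil markers was between 1604 and 2429 normalized counts in the other 5 libraries and 13613 there, where all 10 were higher than in the control. *Csf3r* gave 6944 of that sum, *S100a9* 2906, *S100a8* 1673 and *Ly6g* 15.9. In the pairs at 1 and 3 weeks, where *C3* was 2.11- and 2.68-fold higher in *Il10rb-/-* MΦs, the neutrophil sum was 1.10- and 1.31-fold higher. The sum of 7 dendritic cell markers was 10960 and 39875 at 12 weeks, of which *Ccr7* gave 10331 and 38707. That sum was 2281 and 2248 at 1 week, then 1321 and 3405 at 3 weeks, or 2.58-fold higher in *Il10rb-/-* MΦs. At 3 weeks *Ccr7* gave 1029 and 3159 of it, and 3 of the 7 markers were higher in *Il10rb-/-* MΦs. The part of these cells in the levels of *C3* and *Cfb* was not tested.

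*Cfp* encodes properdin, which stabilizes the convertase that factor B forms with C3b. The gene lies at chrX:20925454-20931555. It was at 2990 and 4764 normalized counts at 1 week in control and *Il10rb-/-* MΦs, 6532 and 5524 at 3 weeks, then 7934 and 8832 at 12 weeks. Both 12-week libraries were above all younger ones, and the genotypes changed order between ages. The log2 ratio was 0.67 at 1 week, -0.24 at 3 weeks and 0.15 at 12 weeks, and the last turned to -0.066 when libraries were scaled by their total reads. Its partner *Cfb* in the same convertase was 19.4-fold higher in *Il10rb-/-* MΦs at 12 weeks, where *Cfp* differed by 1.11-fold.

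*C3ar1*, at chr6:122847138-122856161, encodes the receptor for C3a. It was at 14405 and 11910 normalized counts at 1 week in control and *Il10rb-/-* MΦs, 13058 and 11716 at 3 weeks, then 14870 and 1638 at 12 weeks. As for C1q, the other 5 libraries were close together and the 12-week *Il10rb-/-* library stood below them. The log2 ratio was -0.27, -0.16 and -3.18 (-3.24 to -3.12), or 9.08-fold lower at 12 weeks, the lowest ratio of the 9 members. Its rank among listed genes went from between 125 and 176 to 2185. Ligand and receptor thus exchanged places: per kb of exon, *C3* over *C3ar1* was 0.041 and 0.104 at 1 week, 0.144 and 0.428 at 3 weeks, then 0.243 and 14.1 at 12 weeks in control and *Il10rb-/-* MΦs.

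*C5ar1*, at chr7:16246743-16259540, encodes a receptor for C5a. It was at 3164 and 3524 normalized counts at 1 week, 8247 and 7252 at 3 weeks, then 11974 and 5483 at 12 weeks in control and *Il10rb-/-* MΦs. In controls each later age was higher, by 3.78-fold from 1 to 12 weeks, and in *Il10rb-/-* MΦs the 3-week library was the highest. The log2 ratio at 12 weeks was -1.13, smaller in size than that of *C3ar1*, so the receptors for C3a and C5a did not differ by the same amount in this pair of libraries.

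**Figure D4:**
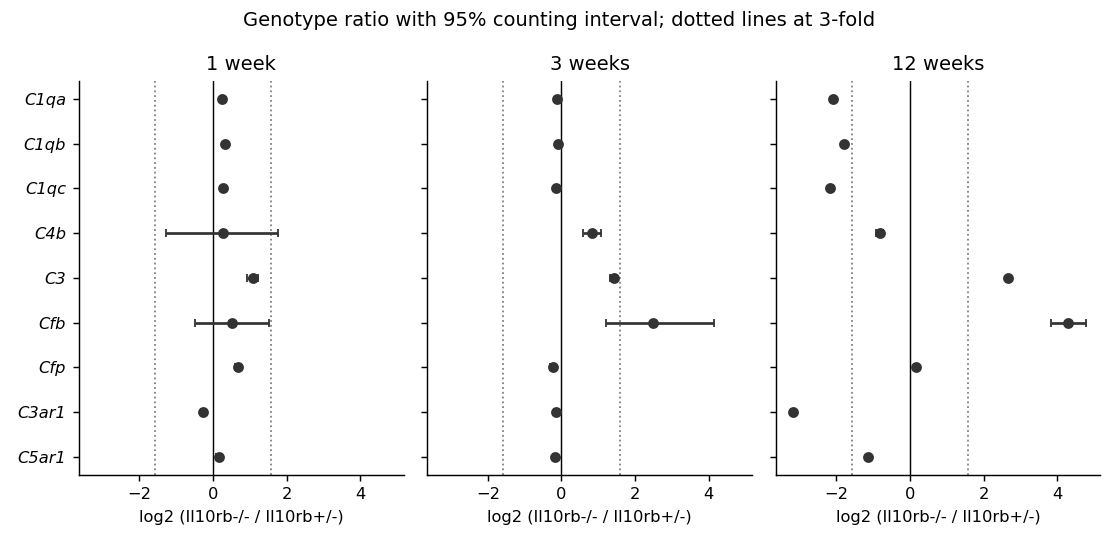
Log2 ratio of normalized counts (*Il10rb-/-* over *Il10rb+/-*) of the 9 members at 1, 3 and 12 weeks, 1 pair of libraries per panel. Bars are 95% intervals of counting error only and dotted lines mark 3-fold in either direction. At 12 weeks *C3* and *Cfb* lie to the right and the C1q chains and *C3ar1* to the left of the dotted lines.

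Levels can be compared between genes only per length. On the mean of the 6 libraries, *C1qb* had 37079 normalized counts per kb of exon, *C1qa* 24159, *C1qc* 16365, *Cfp* 3512, *C3ar1* 2617, *C5ar1* 2571, *C3* 1369, *C4b* 105 and *Cfb* 30.8. With the length of the longest transcript in place of all exons, *C1qc* came to 26268 and passed *C1qa*. The spread over libraries, which includes age and genotype (SD, n = 6), was 8656 for *C1qa* and 6026 for *C1qc*, and *C1qa* was above *C1qc* in 6 of 6 libraries by the length of all exons. *C3ar1* and *C5ar1*, with SDs of 1135 and 1285, had close means but changed order between libraries, and *C3ar1* was above *C5ar1* in 2 of 6. They were at 3346 and 1231 per kb in 1-week controls and at 380 and 2133 in the 12-week *Il10rb-/-* library. *C3* (SD 1987) went from 136 per kb in 1-week controls to 5351 in the 12-week *Il10rb-/-* library.

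Replicates for genotype exist only across ages: the 3 *Il10rb-/-* libraries were compared with the 3 controls with age as a term, and the error then measures how far the genotype difference varies from age to age. No member passed, nor did any of the 11067 genes (0% called, limma, adjusted p under 0.05), while 853 genes had an unadjusted p under 0.05, 2 members among them. *Il10rb* itself was over 38-fold lower in *Il10rb-/-* MΦs at each age and was not called either. A missing call in this fit therefore does not show that a gene is unchanged. *C3* had a log2 difference of 1.72 ± 0.33 (SE, limma, adjusted p = 0.561), and was higher in *Il10rb-/-* MΦs at 3 of 3 ages. *Cfb* had 2.37 ± 0.77 (limma, adjusted p = 0.627), also higher at 3 of 3 ages, although at 1 week the interval held 0. Its difference was 3.31 without the 1-week pair and 1.45 without the 12-week pair. The differences of *C3ar1* (-1.20 ± 0.62), *C1qa* (-0.66 ± 0.47), *C1qb* (-0.52 ± 0.44) and *C1qc* (-0.69 ± 0.49) did not pass (limma, adjusted p of 0.627, 0.664, 0.702 and 0.666), and their ratios at 12 weeks stood apart from those at 1 and 3 weeks. Those of *C5ar1* (-0.39 ± 0.28), *Cfp* (0.19 ± 0.22) and *C4b* (0.08 ± 0.35) did not pass either. Without the 12-week pair *C3* was called, with a log2 difference of 1.25 and an adjusted p of 0.00313 (limma, range over its 8 alternatives 0.00313 to 0.986), and 61 genes were called in all. That fit has fewer libraries, and the degrees of freedom given below are those of the fit to all 6 libraries.

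The other factor of the design is age. In the same fit, 2 of 9 members were higher at 12 than at 1 week over both genotypes, beside 5.01% of genes higher, and none was lower, beside 2.23% of genes. *C3* rose by a log2 difference of 3.42 ± 0.40 (SE, limma, adjusted p = 0.0185) and *C4b* by 6.61 ± 0.43 (limma, adjusted p = 0.0114), each in 2 of 2 genotypes. The differences of *Cfp* (1.15 ± 0.27, limma, adjusted p = 0.0621) and *C5ar1* (1.28 ± 0.34, limma, adjusted p = 0.0778) did not pass, though both were higher at 12 weeks in either genotype. Under total-read scaling they were 0.66 and 0.79 (limma, adjusted p of 0.128 and 0.170). For *C1qa*, *C1qb*, *C1qc* and *C3ar1* the log2 differences were -0.97, -0.53, -0.95 and -1.41, with adjusted p between 0.260 and 0.531, and both 12-week libraries bore on them: without the *Il10rb-/-* one they were 0.10, 0.43, 0.17 and 0.08, and without the control -2.03, -1.48, -2.07 and -2.89, each then called lower. *Cfb* had 1.90 ± 0.94 (limma, adjusted p = 0.232).

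Of 45 further complement genes, 27 were listed and 21 passed the filter. At 12 weeks 9 of the 21 were over 3-fold lower in *Il10rb-/-* MΦs, beside 9.99% of all genes, and none was over 3-fold higher, beside 4.03%. At 3 weeks none passed 3-fold, beside 1.34% of genes higher and 0.642% lower. At 1 week 2 were over 3-fold higher (*C1s1*, *Serping1*), beside 2.75%, and 1 was lower (*C6*), beside 0.75%. Their median log2 ratio was -0.27, -0.07 and -0.83 at 1, 3 and 12 weeks. None was called across ages for genotype. For age, *C1ra* (log2 difference of 3.02 ± 0.26, limma, adjusted p = 0.0114) and *Itgb2* (1.17 ± 0.23, limma, adjusted p = 0.0443) were higher and *C2* (-2.87 ± 0.43, limma, adjusted p = 0.0275) lower at 12 weeks.

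In the classical pathway, the protease *C1ra* was at 30.7 and 52.4 normalized counts at 1 week, 260 and 436 at 3 weeks, then 278 and 397 at 12 weeks, higher with age as *C4b* was. *C1s1*, the other C1 protease, had 0 and 6 reads at 1 week, at least 3.02-fold higher in *Il10rb-/-* MΦs when 3 reads stand for the 0 (the counting interval of the log2 ratio starts at 0.83), and 85.6 and 80.2 normalized counts at 12 weeks. *C2*, whose product is cleaved beside C4, went the other way, from 158 and 100 at 1 week to 19.9 and 13.4 at 12 weeks, and shares 42.8% of its exon bases with *Gm20547*. In the lectin pathway, *Fcna* (ficolin A) was at 2928 normalized counts (6193 reads) in control and 0.637 (1 read) in *Il10rb-/-* MΦs at 12 weeks, a log2 ratio of -12.17 with a counting interval of -17.47 to -9.69. The collectin *Colec12* was at 2681 and 507. *Masp2* and the alternative pathway protease *Cfd* were listed below the filter.

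Of the regulators, which keep complement off host cells, 4 of the 5 past the filter were over 3-fold lower at 12 weeks, beside 9.99% of all genes. *Cd55* was at 226 normalized counts in control and 5.09 (8 reads) in *Il10rb-/-* MΦs, *Cd59a* at 86.5 and 9.55 (15 reads), *Serping1*, the C1 inhibitor, at 344 and 49.0, and *Clu* at 248 and 56.7. *Cr1l* was the exception, at 1355 and 1242. *Serping1* is also made by fibroblasts. It had 3 and 13 reads at 1 week, a log2 ratio of 2.71 (0.85 to 5.16), in the pair whose fibroblast markers differed by 5.72-fold. At 12 weeks, when *Serping1* was lower in *Il10rb-/-* MΦs, the fibroblast sum was 4439 and 566. The part of fibroblasts and endothelial cells in the levels of the regulators was not tested.

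Among the receptors, *Cr2* (415 and 50.3 normalized counts) and *Cd93* (6364 and 1156) were over 3-fold lower at 12 weeks. *Cr2* is also a B cell gene, and the sum of B and plasma cell markers was 17550 and 1906 in the same pair. The part of B cells in the level of *Cr2* was not tested. *Itgb2*, *Itgam* and *Itgax*, which encode the integrin receptors for C3 fragments (the gate selects on the products of the last 2, CD11b and CD11c), were at 6083 and 10471, 1454 and 2040, and 2857 and 5901, each higher in *Il10rb-/-* MΦs. *Calr* (20592 and 24334) and *Lair1* (4548 and 2464), which encode proteins that bind C1q, and *C1qbp* (837 and 749) differed by less than 2-fold. *C6*, of the terminal pathway, was at 105 normalized counts (222 reads) and 0 reads at 12 weeks, at least 54.9-fold lower when 3 reads stand for the 0 (the counting interval of the log2 ratio ends at -5.47), and at 471 and 112 at 1 week, while *C8g* was at 26.5 and 67.5 at 12 weeks.

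**Figure D5:**
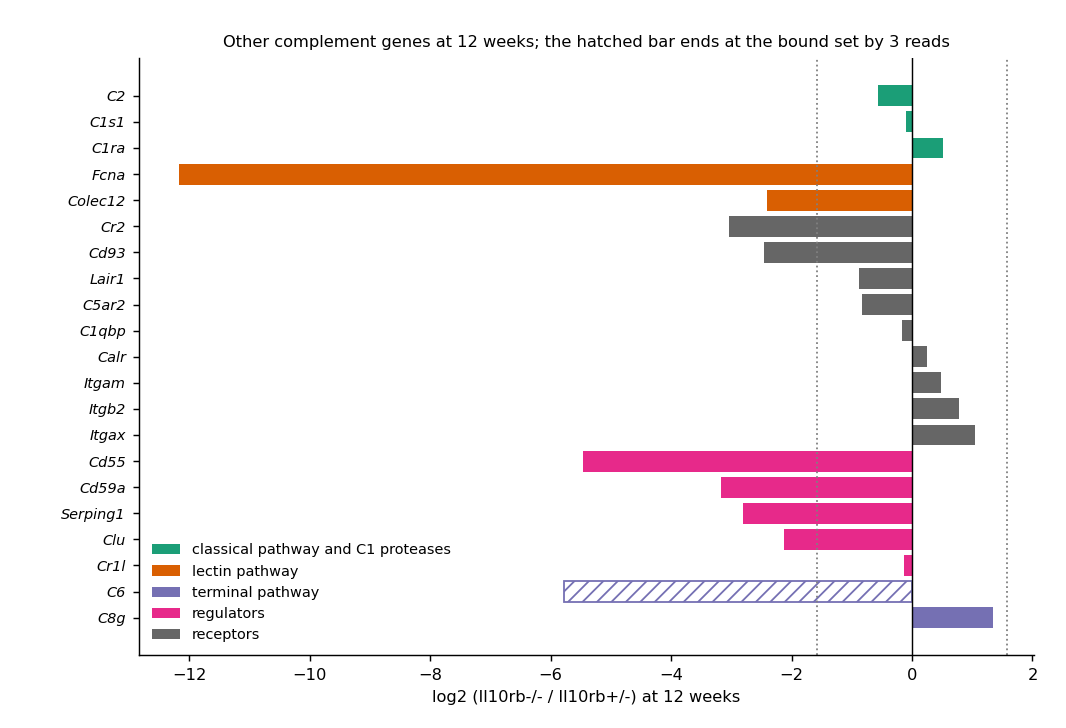
Log2 ratio (*Il10rb-/-* over *Il10rb+/-*) at 12 weeks of the 21 other complement genes past the filter, colored by their list, with dotted lines at 3-fold. *C6* had 0 reads in the *Il10rb-/-* library and its hatched bar ends at the bound set by 3 reads; *Fcna* had 1 read there. The 9 genes past 3-fold all lie on the lower side.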

How the data were processed

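RNA-seq values of 6 libraries (3 ages, 1 library per genotype and age) were grouped by genotype and age as labelled. For each gene the deposited value is a normalized signal: the authors trimmed reads with Trim Galore, aligned them with TopHat (mm10, default parameters), counted them on genes with htseq, divided by DESeq size factors and showed 0 as 1. Versions, annotation and strand setting are not given in the sources used here. Apart from the 1s, each value was a whole multiple of a step particular to its library (tolerance 0.05 reads), from which reads were read back, with a value of 1 taken as 0 reads. Reads and intervals in the text rest on these values. A normalized count stands for between 0.473 (12-week *Il10rb+/-*) and 2.43 (3-week *Il10rb+/-*) per read. The listed genes hold between 6700337 and 40754971 reads per library.

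Ratios at 1 age were taken on the normalized counts, with exact Clopper-Pearson 95% intervals, which cover counting error only. They were tested on simulated data, where they held the true ratio in 95.2% of 1000 draws. The call was 3-fold among the 11067 genes at 50 normalized counts or more in at least 1 library. Genotype and age were fitted with limma 3.58.1 (R 4.3.3; empirical Bayes with a trend, two-sided, Benjamini-Hochberg) on log2 of the value plus 1, with 2 residual and 3.56 prior degrees of freedom. Fold changes on this scale understate low genes. On simulated data limma recovered 100% of 200 genes changed 4-fold for genotype among 10878 and called 11 others. The changed genes were drawn from those with a mean of at least 200 normalized counts, which *Cfb* (mean of 87) did not reach. The same overdispersion was set for every gene, which the real libraries need not share. The simulated difference was the same at each age, so this recovery does not apply to differences that vary between ages. The error behind the p-values is the variation between these 6 libraries that additive terms for genotype and age leave over, moderated over all genes. It does not measure the spread between mice of the same genotype and age. A count test was listed as an alternative and not run, since the values are normalized and their zeros replaced. Other steps used Python 3.11.15, numpy 2.4.6, pandas 2.3.3, scipy 1.17.1 and matplotlib 3.10.9. Coordinates and exons are from the GENCODE annotation of GRCm38 and promoters from RefSeq, which held 6 of the 9 members.

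Members, the other complement genes (named where over 3-fold at any age, called in a fit, or among the 3 most abundant of their list, and *Itgam*, *Itgax* and *C1qbp*, chosen after their values were seen), marker lists and motifs were chosen with earlier results of these data known. Likeness was Pearson's r of log2 values over the 6 libraries among genes with a mean of at least 500, and the 5 highest were named. A further gene of these lists is not reported here. The labels and the study's methods differ on the library kit and on how many mice were pooled at 1 week. Alternatives were total-read and TMM scaling, a pseudocount of 10, no filter, a 2-fold threshold, no age term, each age pair left out, and, chosen after seeing the data, each library left out and ratios relative to MΦ markers.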

Additional observations from a re-analysis of the deposited data

Results flagged for a closer look

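For 6 members the counting intervals of the log2 ratio (*Il10rb-/-* over *Il10rb+/-*) lay on opposite sides of 0 at 2 ages, so that the libraries differed one way at 1 age and the other way at another. The share of all genes that meet this rule was not computed, so the count cannot be read as particular to complement genes. The log2 ratio at 1 week exceeded that at 12 weeks by 2.31 for *C1qa*, 2.12 for *C1qb*, 2.46 for *C1qc* and 1.28 for *C5ar1*. For *Cfp* the ratio at 1 week exceeded that at 3 weeks by 0.91, and for *C4b* that at 3 weeks exceeded that at 12 weeks by 1.65. With 1 library per genotype and age these differences were not tested, and counting intervals of genes with many reads are narrow, so small ratios at 1 and 3 weeks count as a direction here.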

How the results depend on the processing

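Total-read scaling shifted every log2 ratio by 0.0008, -0.05 and -0.22 at 1, 3 and 12 weeks. Of 81 recomputed log2 ratios of members, 66 stayed within their counting interval, 14 moved outside it with the same sign, and that of *Cfp* at 12 weeks reversed, to -0.066 under total-read scaling. The 6 members over 3-fold at 12 weeks stayed 6 under each scaling, the pseudocount, the filter on the pair and relative to the MΦ markers. The last of these settings could hardly change the count, since the median log2 ratio of the markers was 0.02 at 12 weeks. Nor could the filter on the pair, which *Cfb* passes through the *Il10rb-/-* library, where it is high. A 2-fold threshold gave 1 member at 1 week (6.96% of all genes), 2 at 3 weeks (4.95%) and 7 at 12 weeks (24.6%).

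For genotype, the count of 0 genes became 1 with a pseudocount of 10, 1 without the age term, and between 3 and 61 with an age pair left out (61 without the 12-week pair, 20 without the 1-week pair). For age, 802 genes were called (555 higher and 247 lower), 2471 under total-read scaling (447 and 2024), and between 267 (without the 1-week *Il10rb-/-* library) and 3909 (without the 12-week *Il10rb+/-* library) with 1 library left out, where the lone library of an arm is assumed to vary like the others. *C3* and *C4b* were called for age in each of these. Without the 12-week *Il10rb+/-* library all 9 members were called, the C1q chains and *C3ar1* as lower and the others as higher, and without the 12-week *Il10rb-/-* library 4, with *C5ar1* and *Cfp* added. Without the 1-week *Il10rb+/-* library 391 genes were called, and without the 12-week *Il10rb-/-* library 2318. The cause was not tested. Age pairs the libraries and is a term of the fit for genotype, whose count without it is given above. Depth limits *Cfb* and *C4b* at 1 week, with 19 reads or fewer, and *Cfb* at 3 weeks, with 5 reads in the control.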
